A study of Mus musculus with 28 samples.

Results

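The interferon-gamma inducible GTPases followed here are 10 genes, Igtp, Irgm1, Irgm2, Iigp1, Tgtp1, Tgtp2, Gbp2, Gbp3, Gbp6 and Gbp7, out of 39152 gene rows in the count table. They were chosen by their measured levels, several of them lying above the controls in hearts given TN-401, so their levels in TN-401 hearts against either control are given as a description and carry no test, and no numeric threshold was part of the choice. RNA was sequenced from 28 pieces of left ventricle (LV) and right ventricle (RV) of 16 C57BL6 mice, with both ventricles from 12 of them, in a study that asked how hearts without plakophilin 2, a desmosome protein of cardiomyocytes, respond to gene replacement at about 10 weeks. Every animal carried floxed Pkp2 alleles (Pkp2fl/fl). In the Pkp2-cKO animals (cKO) tamoxifen switched on a Cre recombinase driven by the cardiac alpha-myosin heavy chain promoter, so the deletion was in cardiomyocytes, and these animals received HBSS buffer. The 3E13 and 6E13 animals had the same deletion and received TN-401, an AAV9 vector with the human PKP2 gene, at 3E13 or 6E13 vector genomes per kg 1 week before tamoxifen. WT animals were Cre-negative littermates given HBSS. Both control groups received buffer without any vector, so an effect of the vector itself and an effect of human PKP2 cannot be told apart. LV libraries came from 4 cKO, 4 3E13, 3 6E13 and 5 WT animals, and RV libraries from 4 cKO, 2 3E13, 3 6E13 and 3 WT animals. The labels number each animal, and no age or collection time of a single animal was used here, so that a difference in age or time of collection and a difference in group cannot be told apart.

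Interferon-gamma, a cytokine made mainly by T and NK cells, acts through a receptor made of Ifngr1 and Ifngr2 and, in the promoters of its targets, through GAS elements and through ISRE elements, which the induced factor Irf1 binds. The genes described here are classical late products of that pathway in the mouse. They fall in 2 families of GTPases that act on membranes around intracellular pathogens. In the immunity-related GTPase (IRG) family, Igtp, Irgm1 and Irgm2 are the regulatory members that sit on host membranes and keep the others inactive, and Iigp1, Tgtp1 and Tgtp2 are the effector members that load onto the vacuole of a parasite such as Toxoplasma. The guanylate-binding proteins (GBPs), here Gbp2, Gbp3, Gbp6 and Gbp7, are larger GTPases that gather at the same vacuoles and at bacteria.

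Most of the genes lie in a few clusters of the GRCm39 build. On chromosome 11 Igtp (chr11:58089840-58098417) and Irgm2 (chr11:58090444-58113615) overlap on the same strand, and Irgm1 (chr11:48752795-48763164), Tgtp1 (chr11:48876154-48884999) and Tgtp2 (chr11:48948021-48955033) lie elsewhere on that chromosome. Gbp7 (chr3:142236044-142255910), Gbp3 (chr3:142265731-142278979) and Gbp2 (chr3:142326349-142343779) follow each other on chromosome 3. Gbp6 (chr5:105418568-105443751) is on chromosome 5. All are annotated as protein-coding. Some of them cannot be fully separated by short reads. Of the 31-base stretches in the transcripts of Tgtp1, 81.6% also occur in Tgtp2, and 89.2% of those of Tgtp2 occur in Tgtp1. For Gbp6, 58.1% occur in the overlapping gene Gm43302, which is not analysed here. Igtp shares 7.87% with Irgm2. The split of reads between Tgtp1 and Tgtp2, and the level of Gbp6, are therefore uncertain.

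The stretches just before the RefSeq start sites are shown because interferon response elements lie there. RefSeq starts can differ from those of the gene spans given above. The stretches of Igtp, Irgm1, Irgm2 and Tgtp1 lie wholly inside those spans, and those of Gbp2, Gbp3 and Gbp7 partly inside. RefSeq windows of 300 bases (250 before to 50 after the start site, GRCm38.p6, each found once in GRCm39) were at hand for 8 of the 10 genes, with a further window for Gbp3. They were searched on both strands for the ISRE letters GAAANNGAAA and the GAS letters TTCNNNGAA, which read the same on both strands. Matches are in capitals, in the direction of the gene, with GRCm39 coordinates of the stretch printed. ISRE matches of Gbp2, Gbp3 and Gbp7 are on the opposite strand and so read TTTC.
Igtp (chr11:58090308-58090397, + strand): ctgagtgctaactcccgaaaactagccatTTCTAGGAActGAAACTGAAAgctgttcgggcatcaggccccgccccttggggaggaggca
Irgm1 (chr11:48762222-48762317, - strand): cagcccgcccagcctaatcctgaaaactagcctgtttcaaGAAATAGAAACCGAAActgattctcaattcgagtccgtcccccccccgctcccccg
Irgm2 (chr11:58105699-58105788, + strand): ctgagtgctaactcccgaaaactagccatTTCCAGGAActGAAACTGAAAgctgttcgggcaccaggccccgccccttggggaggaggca
Tgtp1 (chr11:48883101-48883190, - strand): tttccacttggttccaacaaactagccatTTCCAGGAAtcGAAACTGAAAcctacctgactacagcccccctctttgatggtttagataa
Tgtp2 (chr11:48955060-48955149, - strand): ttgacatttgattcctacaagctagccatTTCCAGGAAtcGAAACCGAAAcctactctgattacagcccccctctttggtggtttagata
Gbp2 (chr3:142326325-142326414, + strand): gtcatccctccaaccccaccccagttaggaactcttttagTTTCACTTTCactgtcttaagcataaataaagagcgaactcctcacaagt
Gbp3 (chr3:142265720-142265815, + strand): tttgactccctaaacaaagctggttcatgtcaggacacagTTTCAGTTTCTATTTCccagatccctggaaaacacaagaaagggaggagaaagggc
Gbp7 (chr3:142236004-142236093, + strand): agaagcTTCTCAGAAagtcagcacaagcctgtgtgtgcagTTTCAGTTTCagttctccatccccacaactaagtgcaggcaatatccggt
In the printed stretches the 4 genes Igtp, Irgm2, Tgtp1 and Tgtp2 share a layout in which a GAS match is followed, after 2 bases, by an ISRE match. Over those 21 bases Igtp and Irgm2 are identical at 20, Tgtp1 and Tgtp2 at 20, and Igtp and Tgtp2 at 17. Over the whole 90 bases Igtp and Irgm2 are identical at 88. Irgm1 and Gbp3 each hold 2 overlapping ISRE matches, Gbp2 holds 1, and Gbp7 holds 1 ISRE match and 2 GAS matches, of which the farther lies outside the printed stretch. All 8 genes had an ISRE match and 5 had both motifs, while the extra window of Gbp3 had none. Among 32544 RefSeq windows of the same length, 3.45% had an ISRE match, 8.33% a GAS match and 0.455% both. A match is a run of letters and does not show that a factor binds.

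**Figure D1:**
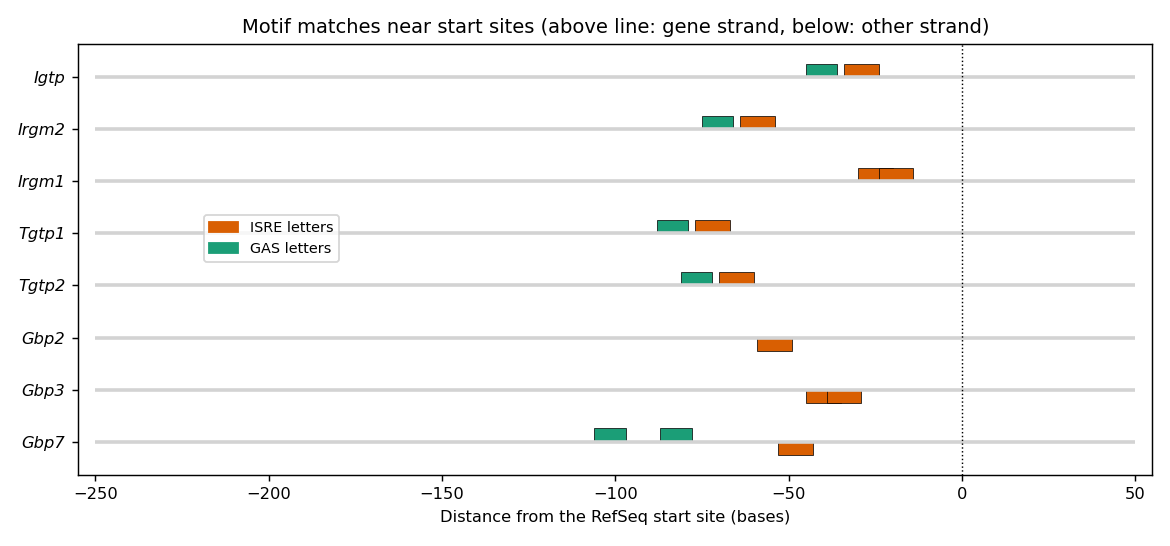
Positions of ISRE (orange) and GAS (green) letters in the windows of 8 genes, in bases from the RefSeq start site, with matches on the strand of the gene above the line and on the other strand below it. Every ISRE match lies within 77 bases before the start, and in Igtp, Irgm2, Tgtp1 and Tgtp2 a GAS match stands right before it.

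The labels of vector and deletion held in the libraries. Human PKP2 was at 0 counts in every cKO and WT library, and at 172 to 376 CPM in 3E13 LV, 227 to 260 in 3E13 RV, 345 to 553 in 6E13 LV and 279 to 440 in 6E13 RV. The dose labels were not checked by this, since the ranges of the 2 doses overlapped in LV. Human PKP2 was not called between the doses in either ventricle. CPM are counts divided by the library size, as counts per megaread, after scaling by the TMM method. Mouse Pkp2 averaged 44.5 ± 10.7 CPM in cKO LV against 118 ± 7.52 CPM in WT LV (SD, n = 4 and 5), and its cKO against WT log2 fold change was -1.39 in LV (adjusted p = 1.3e-05) and -1.75 in RV (adjusted p = 6.7e-06, edgeR quasi-likelihood test with Benjamini-Hochberg adjustment, as for every adjusted p here). Libraries held 19364952 to 39381365 estimated reads. Muscle markers differed between the groups, and the amount of a tissue in a piece and its RNA per cell cannot be told apart here. Summed markers of ventricular muscle ran from 39957 to 88748 CPM in cKO LV against 111073 to 120922 CPM in WT LV. The 4 atrial muscle markers summed to 177 to 1241 CPM in cKO RV against 18.3 to 30.6 CPM in WT RV. That sum includes Nppa, which the paper uses as a heart failure marker. Nppa ran from 175 to 1019 CPM in cKO RV, and Myl4, another of the atrial markers, from 1.68 to 174 CPM.

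Among the regulatory IRG genes, Igtp had the largest difference between treated and control hearts. In LV it was at 5.29, 7.23, 9.04 and 6.43 CPM in cKO, 44.3, 23.1, 22.9 and 75.7 CPM in 3E13, 48, 23.9 and 27 CPM in 6E13, and 8.35, 8.51, 15, 9.15 and 17.2 CPM in WT. In RV it was at 11.5, 6.39, 9.36 and 5.73 CPM in cKO, 48.8 and 74.3 CPM in 3E13, 52.5, 34.2 and 32.3 CPM in 6E13, and 21.6, 9.25 and 21.9 CPM in WT. Every library given TN-401 was above every cKO and WT library of its ventricle, and the spread was widest in 3E13. The log2 fold change of Igtp was 2.58 (SE 0.39) for 3E13 against cKO and 1.85 (SE 0.35) for 3E13 against WT in LV, and 2.91 (SE 0.36) and 1.84 (SE 0.38) in RV. At 6E13 it was 2.25 (SE 0.41) against cKO and 1.52 (SE 0.37) against WT in LV, and 2.26 (SE 0.33) and 1.20 (SE 0.35) in RV.

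Irgm2, whose gene overlaps Igtp, ran from 13.8 to 22.7 CPM in cKO, 41.2 to 110 CPM in 3E13, 35.8 to 69.3 CPM in 6E13 and 17.7 to 44.7 CPM in WT LV. Its treated LV libraries were above cKO but met the top of the WT range, where animal 647 was highest. In RV it ran from 15.7 to 30.8 CPM in cKO, 70 to 103 CPM in 3E13, 51 to 75.9 CPM in 6E13 and 20.9 to 42.4 CPM in WT, with every treated library above every control. Irgm1, which in the mouse also controls autophagy of mycobacteria, ran from 14.5 to 22.8 CPM in cKO, 28 to 58.5 CPM in 3E13, 24.2 to 40 CPM in 6E13 and 14.4 to 19.7 CPM in WT LV, and from 15.7 to 22.6, 43.3 to 52, 28 to 45.4 and 17 to 23.2 CPM in those groups of RV. Irgm1 therefore had narrow control ranges and treated libraries outside them in both ventricles.

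Of the effector IRG genes, Iigp1 (on chromosome 18) had the highest level per transcript length of all 10 genes in every group. Its group means in TPM, a unit that accounts for length, were 18.6 in cKO, 36.3 in 3E13, 30 in 6E13 and 13.4 in WT LV, and 19.2, 51.4, 31.6 and 16.8 in those groups of RV. In CPM it was at 14.5, 60.5, 38.9 and 56.1 in cKO LV, 94.2, 55.7, 79.4 and 187 in 3E13 LV, 125, 58.4 and 78.3 in 6E13 LV, and 40.3, 38.7, 44.8, 37 and 54 in WT LV. The cKO and treated LV ranges met near 60 CPM, and the WT libraries all lay below the treated ones. In RV it was at 35.1, 45.3, 30.8 and 42 CPM in cKO, 130 and 182 in 3E13, 122, 72.8 and 76.7 in 6E13, and 67.4, 52.6 and 63.1 in WT, and there no 2 groups overlapped, in the ascending order cKO, WT, 6E13, 3E13.

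Tgtp1 and Tgtp2 at 6E13 lay inside the WT range or close to it, while both averaged lower in cKO. Tgtp2 was at 4.17, 9.6, 12.7 and 3.23 CPM in cKO LV, 29.4, 13.7, 26.4 and 56.2 CPM in 3E13 LV, 20.8, 20.6 and 24.8 CPM in 6E13 LV, and 13.5, 14.5, 18.6, 12.6 and 28 CPM in WT LV. In RV it was at 8.52, 8.2, 13.4 and 6.42 CPM in cKO, 41.7 and 53.2 CPM in 3E13, 22.4, 23.2 and 21.5 CPM in 6E13, and 23.6, 9.78 and 27 CPM in WT. The 6E13 libraries stood inside the WT range in both ventricles, though in LV only WT animal 647, at 28 CPM, was above them. The log2 fold change of Tgtp2 for 6E13 against WT was 0.36 (SE 0.44) in LV and 0.17 (SE 0.33) in RV. Tgtp1 was at 2.45, 3.3, 4.74 and 3.03 CPM in cKO LV, 11.6, 3.89, 7.27 and 22.1 CPM in 3E13 LV, 7.7, 10.2 and 4.9 CPM in 6E13 LV, and 2.33, 6.62, 10.5, 5.71 and 14.5 CPM in WT LV. In RV Tgtp1 was at 4.1, 1.37, 2.07 and 0.802 CPM in cKO, 13.8 and 20.5 CPM in 3E13, 8.51, 8.94 and 6.4 CPM in 6E13, and 11.8, 6.49 and 16.9 CPM in WT. For 6E13 against WT the log2 fold change of Tgtp1 was -0.05 (SE 0.53) in LV and -0.54 (SE 0.47) in RV, the only negative values among the 10 genes in that comparison.

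Among the GBPs, Gbp6 stood farthest above WT. In LV it was at 0, 12.3, 8.6 and 12.1 CPM in cKO, 38.8, 23.5, 23.6 and 57.9 CPM in 3E13, 32.9, 15.5 and 19.7 CPM in 6E13, and 2.93, 4.43, 7.67, 4.81 and 6.45 CPM in WT. The 0 belongs to animal 177, whose library had 0 Gbp6 counts, which allows up to 0.127 CPM (3 counts). In RV Gbp6 was at 4.88, 6.31, 5.03 and 1.24 CPM in cKO, 23.3 and 45.5 CPM in 3E13, 25.5, 22.9 and 16.8 CPM in 6E13, and 1.8, 0.0877 and 3.05 CPM in WT. All treated libraries were above all controls in both ventricles. The log2 fold change against WT was 2.78 (SE 0.72) at 3E13 and 2.12 (SE 0.74) at 6E13 in LV, and 4.40 (SE 0.81) and 3.72 (SE 0.76) in RV, where WT libraries held 38, 2 and 78 counts.

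The other GBPs were less far apart. Gbp2 ran from 12 to 24 CPM in cKO, 14.4 to 48.8 CPM in 3E13, 23.4 to 26.1 CPM in 6E13 and 14.1 to 22.5 CPM in WT LV, and from 10.4 to 25.4, 47.2 to 63.6, 29.7 to 32.2 and 14.9 to 24 CPM in those groups of RV. Gbp7 ran from 14.8 to 28.4 CPM in cKO, 29 to 60.8 CPM in 3E13, 33.3 to 40 CPM in 6E13 and 22.2 to 35.3 CPM in WT LV, and from 17.8 to 35.5, 41.7 to 57.3, 32.2 to 37.3 and 23.7 to 36.9 CPM in those groups of RV. For Gbp2 and Gbp7 the RV 3E13 libraries were above every control, as were the RV 6E13 libraries for Gbp2, and in the other treated groups the values overlapped those of cKO, WT or both. Gbp3 ran from 5.68 to 13 CPM in cKO, 9.9 to 23.6 CPM in 3E13, 11.1 to 13.2 CPM in 6E13 and 6.1 to 11.1 CPM in WT LV, so that the groups overlapped there, and from 7.27 to 12, 14.7 to 24.4, 9.83 to 15.3 and 5.61 to 12.8 CPM in those groups of RV, where only the 3E13 libraries were above every control.

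**Figure D2:**
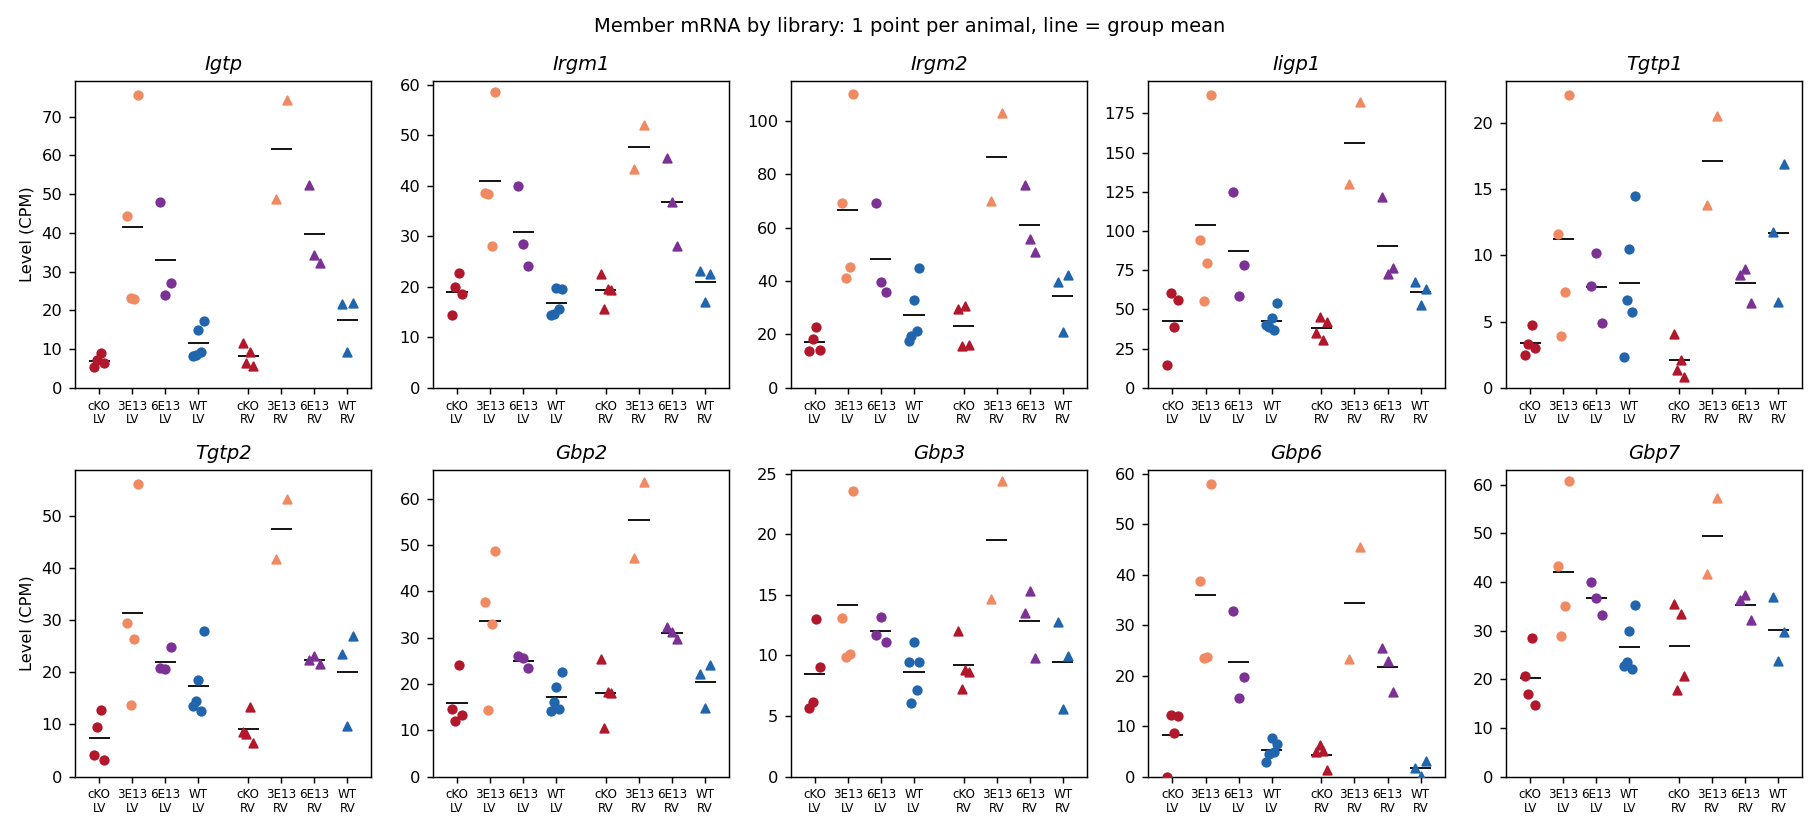
Level in CPM on the y axis (linear, starting at 0) of each of the 10 genes in every library, by group and ventricle, with circles for LV, triangles for RV and a black line at the group mean. Igtp at 22.9 to 75.7 CPM in treated LV against 5.29 to 9.04 CPM in cKO LV, and Gbp6 at 15.5 to 57.9 CPM in treated LV against 2.93 to 7.67 CPM in WT LV, show the gap. Tgtp2 at 6E13, 20.6 to 24.8 CPM in LV, lies inside the WT range, with only the highest WT point, at 28 CPM, above it.

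Over the 10 genes, the median log2 fold change in LV was 1.52 for 3E13 and 1.11 for 6E13 against cKO, and 1.14 for 3E13 and 0.70 for 6E13 against WT. In RV it was 1.98 and 1.26 against cKO and 1.32 and 0.61 against WT, with the median over all genes tested between -0.04 and 0.01 in these comparisons. All 10 passed the filter on low counts in both ventricles. In LV 8 of 10 passed an adjusted p of 0.05 upward for 3E13 against cKO (5.52% of all genes tested) and 5 for 6E13 against cKO (8.65%). Against WT 3 did for 3E13 (1.97%) and 0 for 6E13 (0.0792%). In RV these counts were 9 (4.77%), 8 (11.2%), 6 (5.8%) and 1 (0.849%), the last being Gbp6. For 6E13 against WT in LV, 5 had an unadjusted p under 0.05 in edgeR, and DESeq2 called 2. Over all genes tested there, 1025 of 16410 had such a p in either direction. These comparisons were behind the choice of the genes, so the counts describe them and support nothing further. The 2 doses share their cKO and WT libraries. The counts also lean on single libraries: without animal 253 they came to 0 for 3E13 against cKO and 0 against WT in RV, where 1 3E13 library was then left and was assumed to vary like the other groups, and without animal 181 to 2 for 3E13 against cKO in RV. In LV, 3E13 against cKO came to 5 without 181, 252, 253 or 264, 6E13 against cKO to 1 without 250, to 2 without 264, 631 or 645 and to 3 without 177, and 3E13 and 6E13 against WT to 6 and 1 without 177. The single RV call of 6E13 against WT was lost without any 1 of 9 animals (177, 181, 250, 253, 257, 631, 636, 637 or 647). With only the 2 compared groups in the fit, 1 gene passed for 3E13 against cKO in LV.

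Loss of Pkp2 without TN-401 is a contrast that the choice did not use, but the choice did look at the same cKO and WT libraries. The p values of this comparison are therefore not independent of the choice. The question is whether these genes differ in untreated cKO hearts from WT hearts. Tgtp2 fell in cKO in both ventricles, Tgtp1, Igtp and Iigp1 fell in RV, and no gene passed the test upward. In RV 4 of 10 genes were lower in cKO at an adjusted p under 0.05, where 17.6% of all genes tested were lower, and in LV 1 of 10 was, Tgtp2, where 16.1% were. None was called higher by edgeR or DESeq2, where 19.7% of genes in LV and 19.8% in RV were, and none was higher at an unadjusted p under 0.05 in edgeR. Several of these calls rest on single animals or on the scale. Tgtp2 in LV was not called with transcript length offsets (-0.83, adjusted p = 0.194) or without cKO animal 177 (-1.03, adjusted p = 0.0889), cKO 264, WT 636 or WT 647, Igtp in RV was lost without cKO 180 or 264 or WT 636 or 647, Iigp1 in RV without cKO 177 or 257 or WT 636 or 647, and Tgtp2 in RV without WT 636 or 647. Over these losses the adjusted p ran from 0.0506 to 0.194 and every fold change stayed negative. The medians of the 10 genes were -0.25 in LV and -0.35 in RV, against 0.05 and 0.06 over all genes tested.

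Tgtp1 in RV averaged 2.08 ± 1.44 CPM in cKO against 11.7 ± 5.2 CPM in WT (SD, n = 4 and 3), without overlap of the libraries, and its log2 fold change was -2.47 (SE 0.46, adjusted p = 0.00144). In LV it averaged 3.38 ± 0.971 CPM in cKO against 7.92 ± 4.68 CPM in WT (SD, n = 4 and 5), a log2 fold change of -1.22 (SE 0.50) that missed the threshold in edgeR (adjusted p = 0.0683). Tgtp2 averaged 7.42 ± 4.49 CPM in cKO LV against 17.4 ± 6.33 CPM in WT LV (SD, n = 4 and 5), a log2 fold change of -1.22 (SE 0.42, edgeR adjusted p = 0.0335), and in RV the fold change was -1.12 (SE 0.31, adjusted p = 0.0143). Because the pair shares most of its sequence, their counts were also summed. The sum fell by 1.22 on the log2 scale in cKO LV (adjusted p = 0.0293) and by 1.49 in cKO RV (adjusted p = 0.00286), so the lower count did not rest on how reads were split between them. The sum was not fitted with transcript length offsets. The effective length of Tgtp2 in RV ran from 1645 bases in cKO animal 264 to 2898 bases in WT animal 636. With offsets Tgtp2 alone was not called in LV (-0.83, adjusted p = 0.194), while 4 of the 10 genes stayed called in RV. Adding the overlapping gene Gm12185, an alternative chosen after seeing the data, gave -1.22 (adjusted p = 0.0358) in LV and -1.43 (adjusted p = 0.00454) in RV.

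Igtp in RV averaged 8.25 ± 2.69 CPM in cKO against 17.6 ± 7.2 CPM in WT (SD, n = 4 and 3), a log2 fold change of -1.07 (SE 0.33, edgeR adjusted p = 0.0239). Iigp1 in RV averaged 38.3 ± 6.57 CPM in cKO against 61.1 ± 7.6 CPM in WT, a log2 fold change of -0.65 (SE 0.21, adjusted p = 0.0279), with no overlap between the groups. In LV the same genes gave -0.73 (SE 0.36, adjusted p = 0.134) and 0.00 (SE 0.38, adjusted p = 1). Gbp6 gave 0.65 (SE 0.70) in LV and 1.41 (SE 0.70) in RV, neither called (adjusted p = 0.506 and 0.138).

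These values depend on the scale. On the deposited TPM (without mitochondrial genes) the median gene lay 0.31 higher in cKO LV and 0.39 higher in cKO RV on the log2(TPM + 1) scale, with 85.6% and 84.9% of called genes higher in cKO, against 55.1% and 53% on the TMM scale. On TPM, limma called no member in LV, and in RV it called Tgtp1 lower (-1.44, adjusted p = 0.00918) and Gbp6 higher (1.03, adjusted p = 0.0487) in cKO. In those TPM fits Igtp, Iigp1 and Tgtp2 in RV kept a negative sign, at -0.50, -0.15 and -0.22, below the shift of the median gene, and none of the 3 was called. Of Gbp2, Gbp3, Gbp7 and Irgm1, which were near 0 on the TMM scale, the sign turned positive in RV. Leaving out WT animal 636 or 647 left 1 called gene in RV, Tgtp1, and leaving out either of them or cKO animal 264 left 0 in LV. Leaving out cKO animal 257, WT animal 248 or 3E13 animal 182 or 253 gave 2 in LV. Without cKO animal 177, Gbp6 was called higher in cKO LV (1.06, adjusted p = 0.0269) and Tgtp2 was no longer called, so the count of 1 then stood for another gene.

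**Figure D3:**
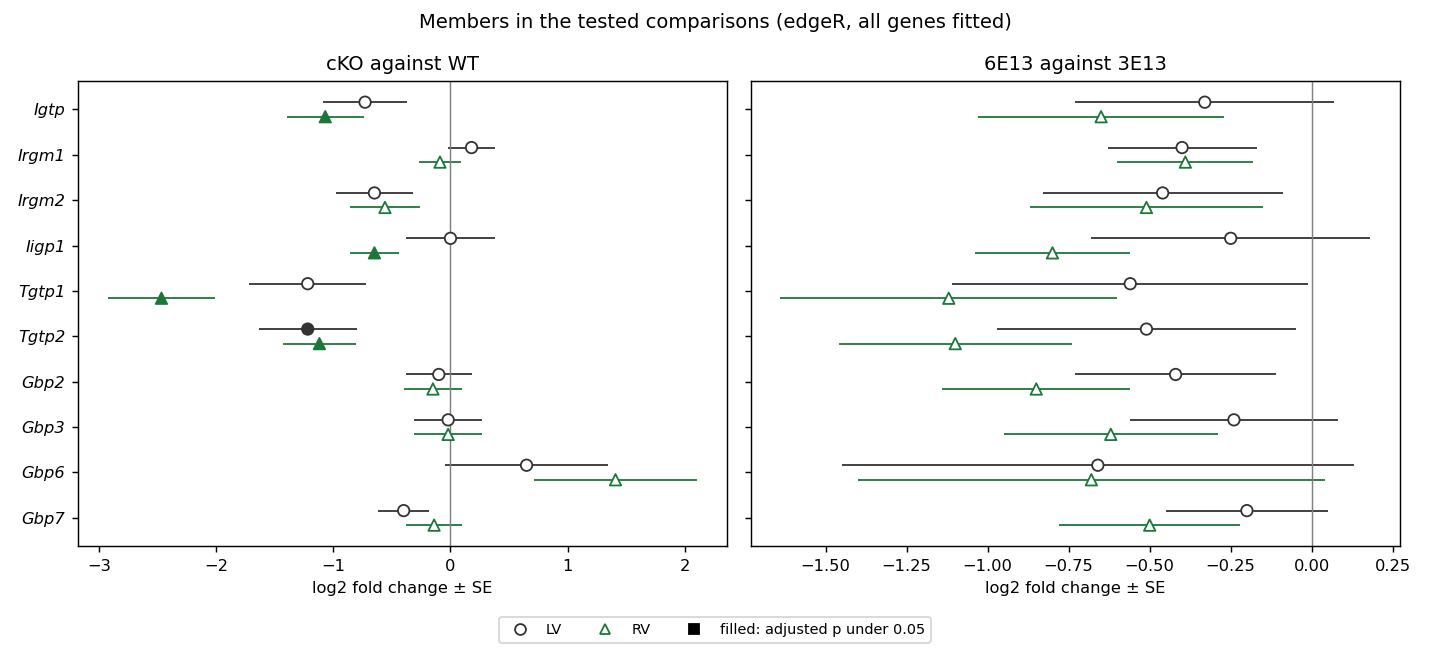
Log2 fold change with its SE (x axis) of each gene, for cKO against WT on the left and 6E13 against 3E13 on the right, with circles for LV, triangles for RV and filled symbols for an adjusted p under 0.05 in edgeR. Tgtp1 at -2.47 in RV is the lowest value, and no symbol is filled for 6E13 against 3E13.

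The higher dose did not give higher levels. The choice of the genes drew on the libraries of both doses, so the p values given here are not independent of it. All 10 log2 fold changes of 6E13 against 3E13 were negative, from -0.66 to -0.20 in LV with a median of -0.41, and from -1.12 to -0.39 in RV with a median of -0.66, while human PKP2 itself was at 0.48 (SE 0.28, adjusted p = 0.964) in LV and 0.45 (SE 0.23, adjusted p = 0.645) in RV. None of the 10 was called in either ventricle by edgeR, DESeq2 or limma, where 0.0122% of all genes tested in LV and 0.0404% in RV were called in either direction. At an unadjusted p under 0.05 edgeR counted 0 in LV and 3 in RV, where 913 of 16410 and 1497 of 17307 genes tested had such a p. The smallest adjusted p was 0.964 in LV and 0.336, for Iigp1, in RV. With only these 2 groups in the RV fit Tgtp2 was called (-1.10, adjusted p = 0.0375). The LV direction rests in part on 1 animal: without animal 253, Igtp (0.13), Iigp1 (0.19), Gbp3 (0.12) and Gbp7 (0.04) turned positive and Tgtp1 came to 0.00, while the other 5 stayed below 0.

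Animals of a group differed from each other in the same direction across the 10 genes. In 3E13, animal 253 had the highest level of all 10 genes in both LV and RV, and animal 182 the lowest of 8 in LV. In 6E13, animal 250 was highest for 7 genes in LV and 6 in RV. In WT, animal 637 was lowest for all 10 genes in RV, and animal 647 was highest for 7 in LV. Put as the average over the 10 genes of the log2 difference from the WT mean of the ventricle, animals 253, 181, 250, 631 and 645 stood at 2.00, 1.28, 1.13, 0.72 and 0.65 in LV and at 1.89, 1.35, 1.14, 0.94 and 0.69 in RV, so the 5 treated animals with both ventricles kept the same order in each. The cKO animals 257, 180, 264 and 177 stood at 0.10, -0.24, -0.43 and -1.53 in LV and at -0.23, -0.65, -0.86 and -0.03 in RV, and there animal 177 was the lowest in LV and the highest in RV. Its LV value is carried in part by Gbp6 at 0 counts, where the log value depends on the prior count, and over the other 9 genes, an alternative chosen after seeing the data, it was -0.92 in LV and -0.31 in RV. Without Gbp6 the 5 treated animals kept their order in both ventricles, at 0.50 to 1.83 in LV and 0.30 to 1.47 in RV. Its LV library also had the highest summed macrophage markers of any library, at 1644 CPM, and a summed ventricular muscle level of 39957 CPM, the lowest in LV. The part of these in its low values was not tested.

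The ventricles of the same hearts were compared next. When both pieces of 12 hearts (24 libraries) were fitted together, each heart as its own block, LV against RV called 0 of 10 genes in cKO (4.08% of all genes tested), 3E13 (0.378%), 6E13 (0.0111%) and WT (0.00556%). At an unadjusted p under 0.05 edgeR counted 3 in cKO and 0 in each of the others, and DESeq2 called 1 in cKO. Of the 17981 genes tested, 3454 had such a p in cKO, 2456 in 3E13, 1000 in 6E13 and 1539 in WT. The smallest adjusted p in cKO was that of Gbp7, which averaged 20.2 ± 6 CPM in LV against 26.9 ± 8.94 CPM in RV (SD, n = 4 each) with a log2 fold change of -0.39 (SE 0.11, adjusted p = 0.0736). The effect of cKO against WT did not differ between LV and RV at an adjusted p under 0.05 for any of the 10 (0.0111% of all genes tested did). Tgtp1 was at 1.05 (SE 0.46, adjusted p = 0.451), and 1 of the 10 had an unadjusted p under 0.05, as did 1874 of all genes tested. For 6E13 against WT none of the 10 differed either (0% of all genes tested), and none had an unadjusted p under 0.05, which 811 of all genes tested had. In both cases DESeq2 and limma also called 0. Without animal 177, 1 gene, Tgtp1, was called higher in LV than in RV of cKO hearts (1.44, adjusted p = 0.00392), and its cKO against WT effect then differed between the ventricles (1.64, adjusted p = 0.0376). With all animals, the calls in RV that were missed in LV are not shown to be particular to RV.

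The other genes of the pathway give the setting. Interferon-gamma mRNA (Ifng) itself was hardly sequenced: its counts summed to 0 over 4 cKO LV libraries, 10 over 4 3E13, 14 over 3 6E13 and 0 over 5 WT LV libraries, and to 3, 24, 7 and 0 over the RV libraries of these groups. No library had more than 15 counts, so a level in WT or cKO LV under 3 counts per library would not have been detected. The receptor chains moved in opposite directions in cKO. Ifngr1 averaged 72.3 ± 9.58 CPM in cKO LV against 32.4 ± 2.18 CPM in WT LV (SD, n = 4 and 5; log2 fold change 1.17, adjusted p = 9.4e-07), and Ifngr2 78.8 ± 6.39 CPM in cKO LV against 154 ± 6.15 CPM in WT LV (log2 fold change -0.96, adjusted p = 1.8e-05). In 6E13 LV they averaged 38.4 ± 1.96 and 145 ± 9.37 CPM (SD, n = 3). Of 14 tested genes of interferon-gamma signalling in LV, 5 were higher and 1 lower in cKO against WT. Over all genes tested there, 19.7% were higher and 16.1% lower.

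Cxcl9, a T-cell attracting chemokine that interferon-gamma induces and that was named after its values were seen, averaged 2.33 ± 1.6 CPM in cKO, 13.2 ± 6.67 CPM in 3E13, 8.29 ± 2.08 CPM in 6E13 and 4.49 ± 2.03 CPM in WT LV (SD, n = 4, 4, 3 and 5). It rose in 3E13 against cKO (2.51, adjusted p = 0.0139) and 6E13 against cKO (1.84, adjusted p = 0.0435). Since Cxcl9 was picked from its list by its values, these p values describe it and support nothing further. Its LV libraries ran from 3.62 to 18.8 CPM in 3E13 and 6.98 to 10.7 CPM in 6E13, and both ranges overlapped WT LV at 1.63 to 7.01 CPM.

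Other IRG and GBP genes, 14 in the table, were counted in the same comparisons. The share of all genes tested that was called in the same direction is in brackets. In cKO against WT 1 rose (19.7%) and 2 fell (16.1%) of 13 tested in LV. Of 14 in RV, 2 rose (19.8%) and 1 fell (17.6%). In LV 7 of 13 tested rose (5.52%) and 1 fell (6.25%) in 3E13 against cKO. In LV 4 rose in 6E13 against cKO (8.65%), 4 in 3E13 against WT (1.97%) and 2 in 6E13 against WT (0.0792%). In RV 4 of 14 rose in each of 3E13 (4.77%) and 6E13 (11.2%) against cKO and 3E13 against WT (5.8%). For 6E13 against WT in RV 2 rose (0.849%). F830016B08Rik, listed here with the IRG genes, averaged 18.1 ± 8.29 CPM in cKO, 202 ± 155 CPM in 3E13, 137 ± 49.3 CPM in 6E13 and 38.3 ± 12.7 CPM in WT LV, with log2 fold changes of 3.49 for 3E13 against cKO (adjusted p = 0.002) and 2.42 for 3E13 against WT (adjusted p = 0.0127). In RV it was also lower in cKO against WT (-1.52, adjusted p = 0.00144). Gm5431 went the opposite way, higher in cKO against WT in LV (1.57, adjusted p = 5.2e-04) and RV (1.40, adjusted p = 0.0115) and lower in 3E13 against cKO in LV (-0.95, adjusted p = 0.0449). The genes of this list called in LV for 6E13 against WT were Gm4841 (3.94, adjusted p = 0.0494) and Gm12250 (2.05, adjusted p = 0.0341), named after their values were seen, and in RV they were Gm4841 (3.55, adjusted p just under the threshold) and F830016B08Rik (1.83, adjusted p = 0.0301). Gm4841 averaged 18.3 ± 11.7 CPM in 6E13 LV against 1.18 ± 0.844 CPM in WT LV (SD, n = 3 and 5).

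Genes induced by type I interferon were counted beside them. Of 24, 13 rose in cKO against WT in LV and 13 in RV, where the 10 GTPase genes had no call upward. Over all genes tested 19.7% and 19.8% rose there. In 3E13 against cKO edgeR called 0 in LV and 0 in RV, where 5.52% and 4.77% of all genes tested rose. At an unadjusted p under 0.05 there were 2 and 0, and DESeq2 called 2 and 0. In 3E13 against WT 10 of the 24 rose in LV (median 0.92) and 8 in RV (median 1.30). Over all genes tested 1.97% and 5.8% rose there, and the medians of the 10 GTPase genes were 1.14 and 1.32. In 6E13 against WT edgeR called 0 in LV, with 19 at an unadjusted p under 0.05, 7 called by DESeq2 and a median of 1.03, and 1 in RV. Over all genes tested 0.0792% in LV and 0.849% in RV rose in that comparison. Isg15, a ubiquitin-like protein induced by type I interferon, had log2 fold changes of 1.96 for cKO against WT (adjusted p = 0.00105), 2.25 for 3E13 against WT (adjusted p = 0.00577) and 0.30 for 3E13 against cKO (adjusted p = 0.655) in LV. Of 24 tested other interferon-gamma targets in LV (chemokines, antigen processing and presentation), 6 rose and 1 fell in cKO against WT. Over all genes tested 19.7% rose and 16.1% fell there. In LV 7 of the 24 rose in 3E13 against cKO (5.52% of all genes tested) and 7 in 3E13 against WT (1.97%). In RV 12 of 26 rose in 3E13 against cKO (4.77%) and 15 in 3E13 against WT (5.8%). Psme1, a subunit of the proteasome activator, was lower in cKO against WT (-0.83, adjusted p = 9.7e-05) and in 6E13 averaged 74.2 ± 6.53 CPM against 77.4 ± 4.35 CPM in WT LV (SD, n = 3 and 5), whereas H2-Ab1, an MHC class II chain, was higher in cKO against WT (1.67, adjusted p = 0.00533).

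**Figure D4:**
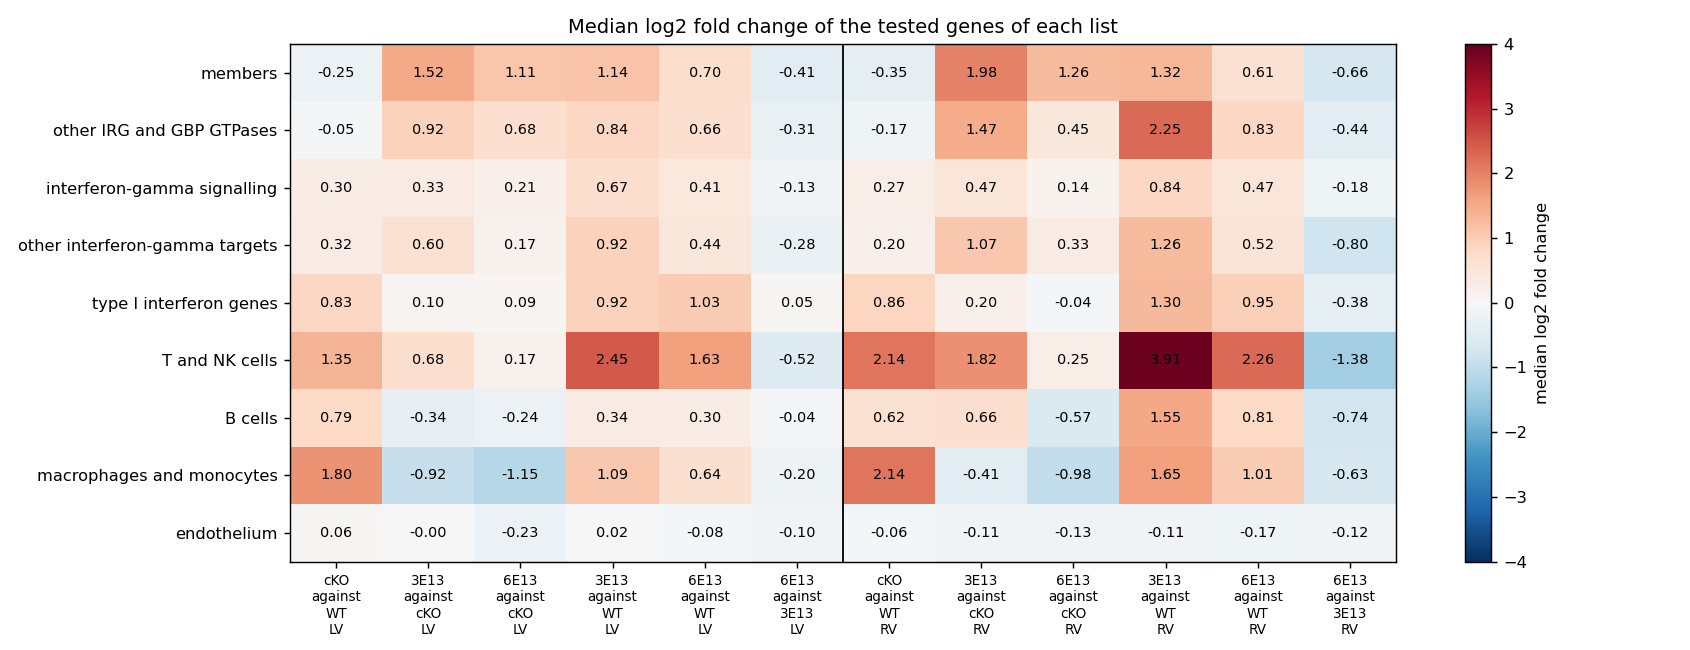
Median log2 fold change, printed in each cell and coloured from -4 to 4, of the tested genes of each gene list (rows) in 6 comparisons of LV and 6 of RV (columns). The 10 GTPase genes (top row, members) are at -0.25 for cKO against WT and 1.52 for 3E13 against cKO in LV, whereas type I interferon genes are at 0.83 and 0.10.

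These are bulk tissue pieces, in which more cells of a type and more RNA per cell cannot be told apart. The markers of immune cells were therefore set beside the 10 genes. Of 19 markers of T and NK cells, whose summed level ran from 8.28 to 16.8 CPM in cKO, 5.3 to 29.3 CPM in 3E13, 9.71 to 16.9 CPM in 6E13 and 3.63 to 6.36 CPM in WT LV, and from 9.92 to 23.5, 35.5 to 52, 16.6 to 20.2 and 4.52 to 5.64 CPM in those groups of RV, 2 (Trac and Prf1) were at 0 in every cKO LV library and none in every WT LV library, while Trac and Nkg7 were at 0 in every WT RV library. Among 13 tested in LV, 8 rose in cKO against WT and 5 in 3E13 against WT, and among 16 in RV, 10 and 11 did. Over all genes tested 19.7% and 1.97% rose in these comparisons in LV, and 19.8% and 5.8% in RV. In RV 6 of 16 also rose in 3E13 against cKO (median 1.82), where 4.77% of all genes tested rose and 9 of the 10 GTPase genes were called. A further RV comparison, 6E13 against WT, had 6 higher (median 2.26), where 0.849% of all genes tested rose. For 6E13 against cKO in RV 0 of 16 rose and 1 fell (median 0.25). There 8 of the 10 GTPase genes were called higher (median 1.26), and 11.2% of all genes tested rose and 10.9% fell. In LV edgeR and DESeq2 called 0 of 13 in 3E13 or 6E13 against cKO, with 0 at an unadjusted p under 0.05 and medians of 0.68 and 0.17. Cd3e, a chain of the T-cell receptor complex named after its values were seen, averaged 1.3 ± 0.404 CPM in cKO, 2.04 ± 1.25 CPM in 3E13, 1.43 ± 0.55 CPM in 6E13 and 0.511 ± 0.224 CPM in WT LV. Animal 253 had the highest T and NK sum of LV (29.3 CPM) and of RV (52 CPM), and animal 182 had 5.3 CPM, inside the WT range, and the lowest average of the 10 genes in 3E13 (0.46). Human PKP2 was also lowest in animal 182, at 172 CPM. The cKO hearts had T and NK sums above WT with averages of the 10 genes from -1.53 to 0.10 in LV. The part of T and NK cells in the levels of the 10 genes was not tested.

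The macrophage and monocyte markers that were called were lower in treated than in cKO hearts and higher in treated than in WT hearts. Their summed level, over 18 genes with none at 0 in every library of a group, ran from 422 to 1644 CPM in cKO, 374 to 492 CPM in 3E13, 346 to 409 CPM in 6E13 and 197 to 242 CPM in WT LV. In RV it ran from 643 to 1162 CPM in cKO, 705 to 717 CPM in 3E13, 446 to 544 CPM in 6E13 and 241 to 278 CPM in WT, so that the 3E13 sums lay inside the cKO range. In cKO against WT 16 of 18 rose in LV and 16 in RV (19.7% and 19.8% of all genes tested rose). Of the 18, 8 fell for 3E13 against cKO and 9 fell for 6E13 against cKO in LV (6.25% and 8.16% of all genes tested fell), and 4 and 10 fell in RV (3.83% and 10.9%). In 3E13 against WT 4 of 18 rose in LV and 10 in RV (1.97% and 5.8% of all genes tested rose). In 6E13 against WT 4 rose in RV (0.849%). The part of macrophages in the levels of the 10 genes was not tested. B-cell markers, 6 genes, summed to 5.63 to 24.4 CPM in cKO, 13.5 to 18 CPM in 3E13, 8.36 to 25 CPM in 6E13 and 6.51 to 11.5 CPM in WT LV, with no call in LV by edgeR or DESeq2 and 1 gene at an unadjusted p under 0.05, for 3E13 against WT. In RV the B-cell sums ran from 7.91 to 20.3 CPM in cKO, 19.8 to 28.4 CPM in 3E13, 8.83 to 21.3 CPM in 6E13 and 7.93 to 9.25 CPM in WT. Of 5 tested 2 rose in 3E13 against WT (5.8% of all genes tested) and 1 in cKO against WT (19.8%). Endothelial markers, 10 genes, summed to 1058 to 1388 CPM in cKO, 1239 to 1283 CPM in 3E13, 1106 to 1235 CPM in 6E13 and 1180 to 1303 CPM in WT LV, so that these ranges overlapped. Single markers moved in opposite directions. In cKO against WT in LV 2 of the 10 rose and 1 fell (19.7% and 16.1% of all genes tested). Kdr averaged 147 CPM in cKO LV against 252 CPM in WT LV, and Pecam1 187 CPM against 141 CPM. For each dose against cKO in LV 1 rose and 1 fell, and against WT 0 were called.

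**Figure D5:**
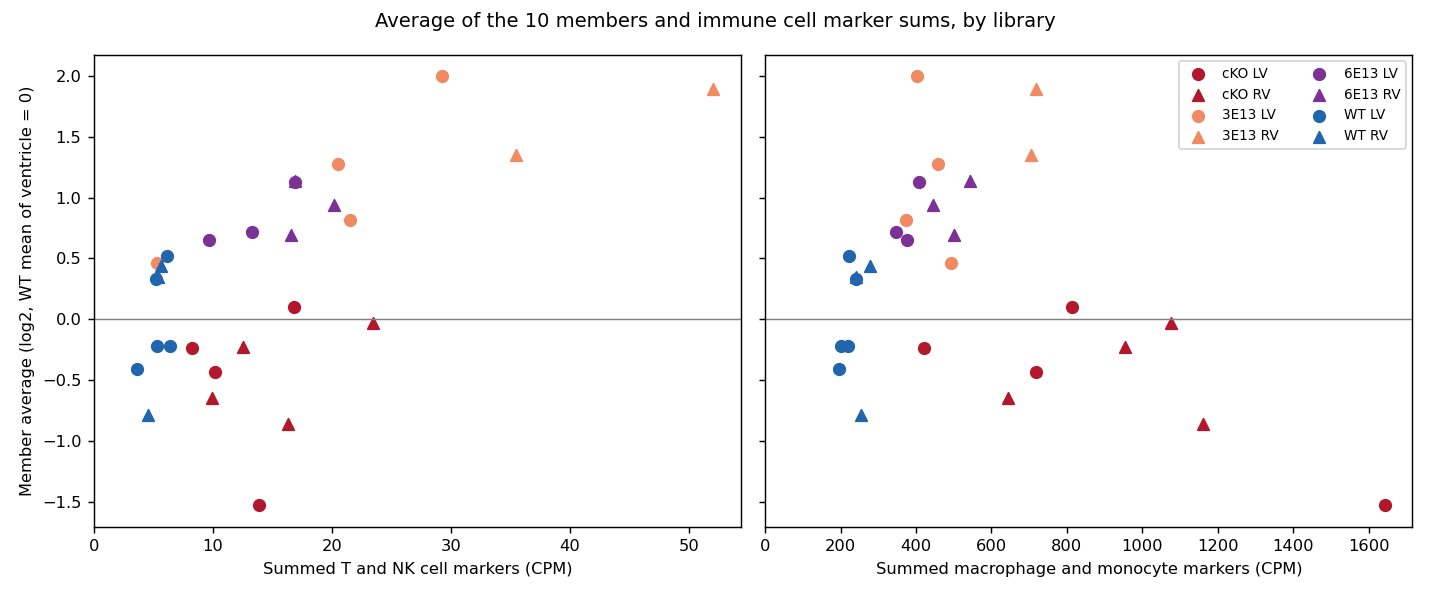
Average over the 10 genes of the log2 difference from the WT mean of the ventricle (y axis) against the summed CPM of T and NK cell markers (left) and of macrophage and monocyte markers (right), 1 point per library, circles for LV and triangles for RV. Treated libraries lie from 0.46 to 2.00 on the y axis and cKO libraries from -1.53 to 0.10, over T and NK sums that overlap, and cKO libraries lie farthest right for macrophages.

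The genes whose pattern was most like the 10 were looked for among 16400 other genes tested in LV, by the root-mean-square difference over the 16 LV libraries between the log2 CPM of a gene and the average of the 10, each centred on its own mean. The average of the 10 itself varied by 0.81 and the median gene lay 0.91 away. Among the nearest 10 were H2-Q6 (0.42), Gbp5 (0.47), Cited4 (0.48), Gm7609 (0.50), Psmb9 (0.50), Lilra5 (0.51), Ppp1r3c (0.51), Gvin1 (0.52) and Hpn (0.53). With the average taken without Gbp6, 7 of the nearest 10 were kept, and Lilra5, Ppp1r3c and Hpn were not. Of the genes named, Gbp5 and Gvin1 are interferon-inducible GTPases, Psmb9 is an immunoproteasome subunit and H2-Q6 is an MHC class I gene. Over the 12 RV libraries Gbp5 was at 0.33, whereas Cited4 was at 0.76 and Hpn at 0.74, against 0.96 for the median gene. Gbp5 averaged 5.01 ± 1.73 CPM in cKO, 12.5 ± 7 CPM in 3E13, 11.1 ± 1.31 CPM in 6E13 and 7.85 ± 3.31 CPM in WT LV (SD, n = 4, 4, 3 and 5). Nearness in this measure describes these libraries and says nothing of shared control.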

How the data were processed

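Total RNA of LV and RV pieces was made into stranded ribosome-depleted libraries (the labels also name polyA RNA) and read as paired ends. The authors trimmed reads with fastp 0.23.3, quantified them with Salmon 1.8.0 on GENCODE transcripts of the GRCm39 build with human PKP2 added, and summed them by gene with tximport. The deposited tables hold expected counts (estimated reads per gene, not normalized), TPM scaled within a library, and other values, the average effective transcript length in bases. A row without a gene name, at most 0.00097% of counts, was left out. Where an estimate is shared by near-identical genes, the split follows Salmon's model. The listed TPM summed to 77.9% to 91.4% of the whole per library, so TPM are on a scale that differs between libraries.

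The 10 genes, the gene lists and the tests were chosen with earlier results of these data known. Expected counts were rounded, filtered with filterByExpr, TMM-scaled and tested over all genes in edgeR 4.0.16 (quasi-likelihood, R 4.3.3), each ventricle alone with 4 groups (16410 genes in LV, 17307 in RV), and LV against RV with the animal as a block (17981 genes, 24 libraries). The study compared groups on log TPM, and log TPM was run here with limma 3.58.1 as an alternative, since the deposited counts allow a count test. An adjusted p (Benjamini-Hochberg within a comparison) under 0.05 was a call. SE is the log2 fold change over the square root of F. Levels are CPM on a common TMM scale. Each label names 1 animal, and the 12 animals with both ventricles pair them: deviations from group means correlated at 0.0364 to 0.328 within animals. No 2 libraries of a group were copies (38 pairs, chi-squared per degree of freedom of at least 17). Other choices tried were RLE size factors, no filter, DESeq2 1.42.0, log2(TPM + 1) and log2(TPM + 0.1) without mitochondrial genes, transcript length offsets, Tgtp1 and Tgtp2 summed, fits of only 2 groups, no block and leaving out each animal. The fits were tested on simulated data.

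A gene with 0 counts may have had up to 3. Intervals and floors cover counting error only. Named genes are the 10, Pkp2 and human PKP2, up to 4 genes of each list with the smallest p for cKO against WT in LV, and the 10 genes nearest in pattern. Ifng was named after its values were seen, and Trac and Prf1 for being at 0 in every library of a group. Any other gene whose level is given is said to be chosen after its values were seen. One gene of these lists is not reported here. The lists were other IRG and GBP GTPases, interferon-gamma signalling, other interferon-gamma targets, type I interferon genes, and markers of T and NK cells, B cells, macrophages and monocytes, endothelium, ventricular muscle and atrial muscle.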

Additional observations from a re-analysis of the deposited data

How the results depend on the processing

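Counts of the 10 genes passing an adjusted p of 0.05 moved with the tool, the scale and the libraries, as follows. For cKO against WT in LV (1 gene), DESeq2 gave 2, and both TPM scales and transcript length offsets gave 0; in RV (4 genes) both TPM scales gave 2. For 3E13 against cKO in LV (8), log2(TPM + 0.1) gave 5 and a fit of only the 2 groups 1; in RV (9) the latter gave 4. For 6E13 against cKO in LV (5), both TPM scales gave 1 and the fit of 2 groups 2; in RV (8) the TPM scales gave 4 and 3. For 3E13 against WT in LV (3), DESeq2 and the fit of 2 groups gave 6 each. For 6E13 against WT in LV (0), they gave 2 and 3; in RV (1) RLE size factors, log2(TPM + 0.1) and the fit of 2 groups gave 0, no filter 2 and DESeq2 3. For 6E13 against 3E13 in RV (0) the fit of 2 groups gave 1, and for LV against RV in cKO (0) DESeq2 gave 1. Calls over all genes moved as well. For 6E13 against cKO in LV, 395 and 373 genes were called higher on log2(TPM + 1) and log2(TPM + 0.1), against 1420 in the main fit. Such numbers are not given here for DESeq2 or the fits of 2 groups. The cause was not tested. All called fold changes kept their sign in these alternatives.

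Leaving out each animal gave 0 to 2 for cKO against WT in LV and 1 to 4 in RV, 5 to 8 and 0 to 10 for 3E13 against cKO, 1 to 5 and 6 to 8 for 6E13 against cKO, 2 to 6 and 0 to 7 for 3E13 against WT, and 0 to 1 in each ventricle for 6E13 against WT. It gave 0 to 1 for LV against RV in cKO and for the LV minus RV difference of cKO against WT, and 0 for the others. Without the replicate block, LV against RV called 0 genes in every group, so the animal pairing changed no call.

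Signs that turned were those of values not called. In LV cKO against WT, Gbp2 was 0.21 and 0.22 and Gbp3 0.29 and 0.33 on the 2 TPM scales, Gbp3 was 0.05 with length offsets, Gbp6 was -0.02 on log2(TPM + 0.1), and Iigp1, at 0.00, was -0.01 with no filter, length offsets or 2 groups. In RV cKO against WT the TPM scales gave Irgm1 0.30 and 0.32, Gbp2 0.29 and 0.30, Gbp3 0.23 and 0.27, and Gbp7 0.20 and 0.22. Leaving out each animal gave -0.23 to 0.28 for Iigp1, -0.38 to 0.01 for Gbp2 and -0.31 to 0.13 for Gbp3 in LV cKO against WT, -0.37 to 0.03 for Gbp2, -0.29 to 0.25 for Gbp3 and -0.31 to 0.02 for Gbp7 in RV, and for 6E13 against 3E13 in LV -0.70 to 0.13 for Igtp, -0.60 to 0.19 for Iigp1, -0.84 to 0.00 for Tgtp1, -0.38 to 0.12 for Gbp3 and -0.33 to 0.04 for Gbp7. With 2 to 5 libraries a group, small differences were not detectable.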
